A study of Mus musculus with 16 samples.

Results

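The proteasome subunit genes were the 42 genes named Psma, Psmb, Psmc, Psmd, Psme or Psmf followed by a number, with Psmb8 and Psmb9 left out, of 26595 features in the table of the CD93 experiment and 36930 in that of the drug experiment. By prefix they were 8 alpha core genes (Psma), 9 beta core genes (Psmb), 6 ATPase genes (Psmc), 14 lid and base genes (Psmd) and 5 activator and inhibitor genes (4 Psme and Psmf1). RNA of sorted C57BL/6 mouse bone marrow cells was sequenced in 16 libraries of 6 groups, named by the sample titles, with an age of postnatal week 8 on every label. The leukemic stem cells (LSCs) came from Cd93-deficient CML mice (KO LSC, 3 libraries) and from Cd93-proficient CML mice (WT LSC, 3 libraries). Chronic myeloid leukemia (CML) was induced by transducing LSK cells with BCR-ABL1-GFP and injecting them into non-irradiated BL/6 recipients, which are themselves Cd93-proficient and keep their own marrow. The naive LSK cells, marrow cells without lineage markers that carry Sca-1 and c-Kit and contain the stem cells, came from KO mice (KO LSK, 2 libraries) and WT mice (WT LSK, 2 libraries) without leukemia. In the drug experiment, LSCs came from WT CML mice given metoclopramide (MCP, a dopamine receptor antagonist) at 10 mg/kg (MCP LSC, 3 libraries) or vehicle (Veh LSC, 3 libraries). No dosing schedule is stated, and a source field that reads LSK for the drug samples was set aside in favour of the titles.

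The proteasome degrades proteins tagged with ubiquitin. Rings of alpha and beta subunits form a barrel, the core particle. The beta ring holds the cutting sites and the alpha ring gates the entry. A regulatory particle caps the barrel, with a ring of ATPases that unfold substrates and pull them in, a base and a lid that bind ubiquitin chains and remove them. Psme proteins are alternative caps, and in immune cells induced catalytic subunits replace the constitutive ones. A few Psmd genes (Psmd5, Psmd9 and Psmd10) encode chaperones that help assemble the base and are not part of the finished particle.

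Values were taken as RPKM, reads scaled to gene length and to the reads mapped in the library, a unit inferred from the values and named by no label. Levels of different genes are set side by side on that assumption. Column totals ran from 1003932 to 1360625 in the CD93 experiment and from 828690 to 951754 in the drug experiment, but these are sums of RPKM and not read numbers, so the depth is unknown. A feature without signal was listed at 0.003 in the CD93 experiment and at 0.001 in the drug experiment. Features above that value numbered 1230 to 2967 in the KO LSC libraries and 5525 to 7956 in the WT LSC libraries, against 14279 to 14906 in the KO LSK libraries and 14839 to 14865 in the WT LSK libraries. They numbered 15587 to 16447 in the MCP LSC libraries and 19554 to 20014 in the Veh LSC libraries. The KO LSC libraries therefore stood apart, and a gene at the lowest value in them cannot be called absent.

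The labels were checked against genes that define them. Cd93 read 0.003, 44.3 and 0.003 RPKM in the libraries labelled KO LSC 1, 2 and 3, against 0.003, 0.003 and 5.74 in WT LSC. It read 1.01 and 2.10 RPKM in KO LSK, against 5.34 and 22.9 in WT LSK. The library labelled KO LSC 2 therefore held the highest Cd93 value of the CD93 experiment, which goes against its label. Whether those reads lie in the deleted stretch cannot be seen from gene totals. The summed level of 11 stem cell and LSK markers was 1.34 to 304 RPKM in KO LSC, where 10 of 11 were at the lowest value in each library, and 29.2 to 114 in WT LSC, where 6 to 8 were. It was 1373 to 2673 in the LSK libraries, with none of the 11 at the lowest value. The summed level of 8 neutrophil markers was 31522 to 50927 RPKM in KO LSC and 62244 to 109288 in WT LSC, against 1944 to 5557 in the LSK libraries. S100a8, S100a9 and Camp carried this sum, while Ngp was at 0.003 RPKM in the KO LSC libraries and at 89.7 to 289 in the LSK libraries, and Cxcr2 was at 0.003 in all LSC libraries and above it in 3 of 4 LSK libraries. In bulk RNA, fewer cells of a type and less RNA per cell cannot be told apart.

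The proteasome genes were among the more abundant genes of the LSK, WT LSC, MCP and Veh groups. In LSK cells, 22 to 28 of the 41 tested members lay above the 90th percentile of all tested features of their library, and in MCP and Veh LSCs 24 to 26 did. In WT LSC 17 to 21 did, and in KO LSC 15 to 20. In KO LSC 3 that percentile was itself 0.003 RPKM, so lying above it meant only having signal. The summed level of the members was 9221, 14312 and 22739.9 RPKM in KO LSC, 7838, 6705 and 7263 in WT LSC, 14692 and 16408 in KO LSK, and 15549 and 12725 in WT LSK. As a share of the column total this was 0.834%, 1.05% and 1.84% in KO LSC and 0.577% to 0.647% in WT LSC, against 1.27% to 1.29% in the 4 LSK libraries. WT LSCs thus lay below the LSK cells in every library, while the KO LSC libraries spread to both sides of them. In KO LSC 3, the alpha subunits Psma6 and Psma4 made up 54.7% of the sum. In the drug experiment, whose table was made separately, the share was 0.530%, 0.505% and 0.478% in MCP LSC, against 0.530%, 0.553% and 0.535% in Veh LSC. The highest MCP share was level with the lowest Veh share, and the other MCP shares lay below it.

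Within each role the genes differed in level, but many neighbours in the order overlapped. The leading gene changed between groups in the beta ring and in the lid and base. In the alpha ring, Psma7 led with 412 ± 7.81 RPKM in MCP LSC and 315 ± 15.2 in Veh LSC (SD, n = 3 each), and with 1494 ± 433 in WT LSK (SD, n = 2). Psma8, the alpha subunit of testis proteasomes that takes the place of Psma7, was lowest, at 7.77 to 30.4 RPKM in MCP LSC and 8.50 to 11.1 in Veh LSC. In the beta ring, Psmb1, a structural subunit, led in MCP LSC (224 ± 21.3 RPKM, SD, n = 3) and Veh LSC (192 ± 20.9, SD, n = 3). Psmb2, another structural subunit, led in WT LSK at 865 and 1135 RPKM, where its range overlapped that of Psmb6, the next in order. Psmb11, the catalytic subunit of thymic epithelium, was at the lowest value in all 16 libraries and was the only member not tested.

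Among the ATPases, Psmc3 was highest, at 202 ± 28.3 RPKM in MCP LSC and 199 ± 6.48 in Veh LSC (SD, n = 3 each) and at 375 and 410.3 in WT LSK. The lowest ATPase was Psmc2 in Veh LSC, at 81.0 to 105 RPKM, which overlapped Psmc5, and Psmc1 in WT LSK, at 162 and 168. The ATPases thus stayed within a narrower band than the core subunits. In the lid and base, Psmd7, a lid scaffold subunit, was highest, at 237 ± 15.0 RPKM in MCP LSC and 248 ± 14.8 in Veh LSC (SD, n = 3 each), overlapping the ubiquitin receptor Psmd4 in both. The assembly chaperone Psmd10 was lowest in Veh LSC, at 23.2 to 26.0 RPKM, and Psmd11, a lid subunit, was lowest in WT LSK, at 62.1 and 69.0, where it overlapped Psmd2.

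**Figure D1:**
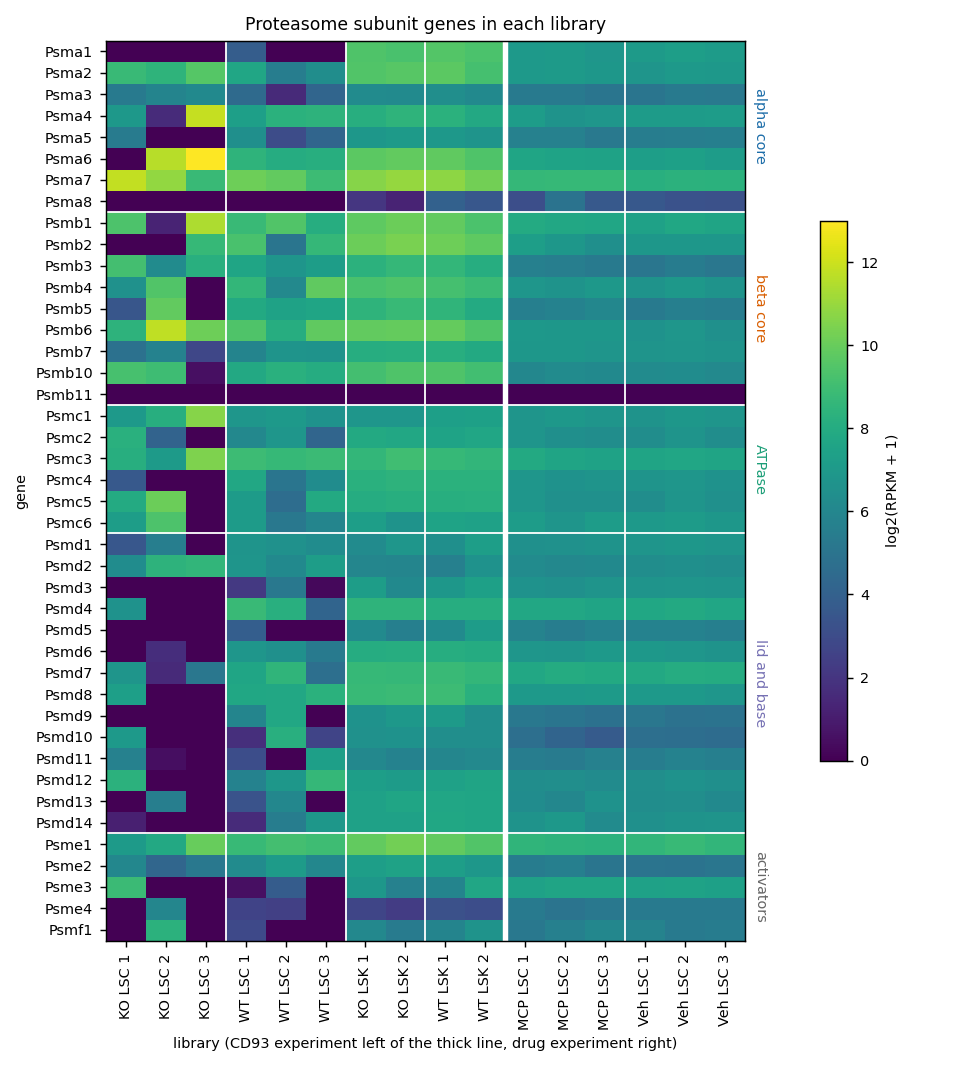
Level of each of the 42 genes (rows, grouped by role) in each of the 16 libraries (columns), as log2(RPKM + 1) on the colour scale. The darkest cells are values near 0: they fill much of the KO LSC columns, from 11 to 25 of 42 genes in a library, and only the Psmb11 row in the LSK, MCP and Veh columns.

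The share of the summed level held by the lid and base genes was 10.4%, 3.01% and 1.78% in KO LSC, 17.0%, 28.3% and 18.1% in WT LSC, 17.7% and 15.6% in KO LSK and 17.2% and 20.5% in WT LSK. In the drug experiment it was 28.2% to 29.8% in MCP LSC and 30.9% to 31.7% in Veh LSC. The KO LSC libraries were the lowest of the CD93 experiment in this share. The member profile, on the log2 scale over all 42 genes, correlated within groups at Pearson r of 0.321 to 0.410 in KO LSC and 0.616 to 0.780 in WT LSC, against 0.988 in KO LSK and 0.969 in WT LSK. It was 0.969 to 0.976 in MCP LSC and 0.993 to 0.997 in Veh LSC. These are descriptions over genes of the same libraries, and genes are not independent replicates.

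Promoters are shown for the genes whose differences are described below and for Psmb5, the chymotrypsin-like catalytic subunit, whose window holds a match to the antioxidant response element, the site through which the factors Nfe2l1 and Nfe2l2 are known to act. Each is the 250 bases before the start of the gene, 5′ to 3′ on the minus strand, from RefSeq on GRCm38.p6, and the capitals mark a match to TGACNNNGC (antioxidant response element) or to CCAAT on either strand. They lie at chr2:180042465-180042714 (Psma7), chr14:14120946-14121195 (Psmd6), chr7:28050093-28050342 (Psmc4) and chr14:54617996-54618245 (Psmb5).
Psma7: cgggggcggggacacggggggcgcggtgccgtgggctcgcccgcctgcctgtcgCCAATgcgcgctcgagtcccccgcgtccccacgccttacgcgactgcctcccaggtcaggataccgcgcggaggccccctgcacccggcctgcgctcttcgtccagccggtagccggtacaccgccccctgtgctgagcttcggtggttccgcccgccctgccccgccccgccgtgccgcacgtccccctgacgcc
Psmd6: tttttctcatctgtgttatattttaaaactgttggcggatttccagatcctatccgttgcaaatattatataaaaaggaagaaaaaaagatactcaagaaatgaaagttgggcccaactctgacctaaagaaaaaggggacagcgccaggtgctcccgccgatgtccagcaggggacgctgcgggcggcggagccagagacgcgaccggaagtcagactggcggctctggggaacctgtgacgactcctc
Psmc4: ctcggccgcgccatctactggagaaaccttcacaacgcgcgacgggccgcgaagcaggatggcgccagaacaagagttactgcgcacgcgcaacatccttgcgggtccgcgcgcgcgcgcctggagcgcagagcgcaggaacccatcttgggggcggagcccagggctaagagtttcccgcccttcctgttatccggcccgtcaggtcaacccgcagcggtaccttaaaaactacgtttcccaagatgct
Psmb5: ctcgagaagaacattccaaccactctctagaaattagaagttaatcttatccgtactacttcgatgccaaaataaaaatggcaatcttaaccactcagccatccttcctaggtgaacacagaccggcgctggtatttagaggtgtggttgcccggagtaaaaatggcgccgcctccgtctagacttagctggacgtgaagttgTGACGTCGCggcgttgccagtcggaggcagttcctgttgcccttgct
Of the 42 genes, 35 had a RefSeq entry, with 38 promoter windows of 300 bases that run from 250 before to 50 after the start. TGACNNNGC was found in 6 of 38 windows (15.8%), against 12.4% of all 32851 windows, and CCAAT in 13 (34.2%) against 37.4%. GGGCGG (the GC box) was found in 22 windows (57.9%), against 35.7% of all windows. The 6 genes with TGACNNNGC were Psmb5, Psmb6, Psmc6, Psmd9, Psmd12 and Psme4. The 3 motifs were searched on both strands and do not overlap one another in their letters. These matches are descriptions of letters and not of binding.

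Constitutive and induced forms were compared within a library. Psmb10, the induced catalytic subunit that takes the place of Psmb7 in immunoproteasomes, was at 604, 497 and 0.45 RPKM in KO LSC, 230, 305 and 267 in WT LSC, 544 and 691 in KO LSK, and 683 and 527 in WT LSK. The ratio of Psmb10 to Psmb7 was 21.6, 9.22 and 0.078 in KO LSC, 4.0, 2.88 and 2.59 in WT LSC, 1.99 and 2.47 in KO LSK and 2.44 and 2.19 in WT LSK. It was 0.542, 0.653 and 0.652 in MCP LSC and 0.723, 0.710 and 0.671 in Veh LSC. Every WT LSC library thus lay above the LSK libraries, and every MCP library lay below every Veh library, in this ratio, which was not tested. Among the activators, Psme1 and Psme2 together form the cap induced by interferon gamma, and Psme1 exceeded Psme2 in all 16 libraries. Their ratio was 8.23, 7.05 and 10.0 in MCP LSC, against 12.2, 14.0 and 11.4 in Veh LSC. Psme4, the large single-chain cap, was at 30.8 to 39.1 RPKM in MCP LSC and 38.1 to 40.4 in Veh LSC. In the CD93 experiment, whose table was made separately, Psme4 ranged from 3.90 to 8.40 RPKM over the 4 LSK libraries. Leukemic cells of WT mice there read 5.09, 4.56 and 0.003 RPKM, each below every WT LSK library. Those of KO mice read 0.05, 61.4 and 0.003 RPKM. Psme4 levels were not compared between the tables. Psme3, the nuclear cap, was at 171 to 193 RPKM in MCP LSC and 167 to 179 in Veh LSC, and Psmf1, an inhibitor in biochemical assays, was at 35.5 to 62.9 in MCP LSC and 38.2 to 55.0 in Veh LSC.

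**Figure D2:**
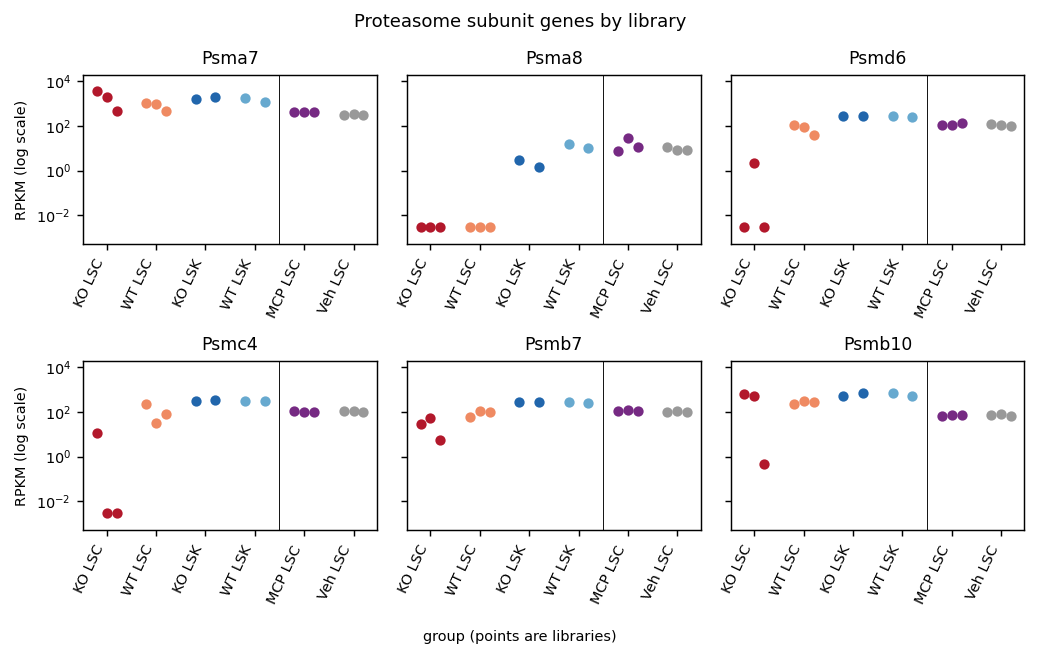
RPKM on a log scale of 6 named genes in the 16 libraries, each point a library, with the CD93 experiment left of the line and the drug experiment right of it. Psmd6 and Psmc4 are at 0.003 in 2 of 3 KO LSC libraries each and at 2.26 and 11.5 in the remaining one, Psma8 sits at 0.003 in each of the 6 LSC libraries of the CD93 experiment, and the 3 MCP points of Psma7, at 404 to 419, sit above the 3 Veh points at 298 to 327.

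Loss of Cd93 was first compared in leukemic stem cells. Psmd6, a lid subunit, and Psmc4, an ATPase of the base, fell in KO LSC, and no member rose. Psmd6 (chromosome 14, 14112174 to 14120984, minus strand, GRCm38) was at 0.003, 2.26 and 0.003 RPKM in KO LSC, against 111, 90.9 and 39.3 in WT LSC. Every KO library lay below every WT library, with a difference of -5.65 ± 0.78 (SE) in log2(RPKM + 1) and an adjusted p of 0.00261 (limma, Benjamini-Hochberg over all tested features). Psmc4 (chromosome 7, 28041707 to 28050101, minus strand) was at 11.5, 0.003 and 0.003 RPKM in KO LSC, against 223, 32.3 and 78.8 in WT LSC, again with no overlap, a difference of -5.18 ± 1.20 (SE) and an adjusted p of 0.0347 (limma). The 2 members that fell are 4.88% of the 41 tested, below the 8.74% of all 13485 tested features called lower in the same comparison, where 0.0742% were called higher. Of the lid and base genes, 13 of 14 had a negative difference, as did 6 of 8 beta core, 5 of 6 ATPase, 3 of 8 alpha core and 2 of 5 activator genes, against 62.2% of all tested features. A positive difference was found for 11 members (26.8%), against 8.48% of all tested features. Psma8, at 0.003 in both groups, had a difference of 0, as did other features at the lowest value in both. Such features are in the base of both shares but in neither count, and they draw the median over all tested features towards 0. The median difference was -1.30 over the 41 members and -0.77 over all tested features.

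Within the 41 members, 9 had an unadjusted p under 0.05 (21.1% of all tested features did), and 3 had KO LSC libraries all above the WT LSC libraries (0.564% of tested features did), which were Psma2, Psma3 and Psmc1. A feature at 0.003 RPKM in any KO LSC library could not lie wholly above WT LSC. At that value were 78.7% to 91.3% of all tested features in a KO LSC library, against 24.4% to 58.5% of the members. The 0.564% is thus not matched to the members for detection. The KO LSC libraries all lay below the WT LSC libraries for 7 members, 17.1%, beside 14.1% of all tested features. Psma2, an alpha subunit, was at 447, 346 and 758 RPKM in KO LSC, against 206, 45.1 and 82.3 in WT LSC, with an adjusted p of 0.0955 (limma). These genes were named after their values were seen. With quantile normalization 1 member passed and it was higher (Psma3), so the split of calls by direction changed. Of all tested features, 562 were then called higher and 745 lower. Without the library labelled KO LSC 2, whose Cd93 value goes against its label, 3 members fell (Psmd6, Psmb5 and Psmd1), and Psmc4 had an adjusted p of 0.089 (limma). Without KO LSC 3, which had the fewest features above the lowest value, 2 members fell, Psmd6 and Psmb2. Without KO LSC 1, 6 members fell and 1 rose, and a single library thus moved the count of calls by more than 1.5 times. Of all 13485 tested features, 1507 were called lower and 48 higher without KO LSC 1. Those called lower were 1194 without KO LSC 2 and 931 without KO LSC 3. Psmd6 lost its call in 1 of 11 alternatives and Psmc4 in 7 of 11.

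Because many features of these libraries sat at the lowest value, detection was counted alongside. Of the 41 tested members, 24.4%, 34.1% and 58.5% were at the lowest value in KO LSC 1, 2 and 3, and 2.44%, 12.2% and 19.5% in WT LSC 1, 2 and 3. Of all tested features, 78.7%, 83.4% and 91.3% were in KO LSC and 42.9%, 50.8% and 60.0% in WT LSC. The percent was lower for the members than for all tested features in each of these 6 libraries, a difference that was not tested. Members found in none of the KO LSC libraries were Psma1, Psma8, Psmd3, Psmd5 and Psmd9, and those found in 1, 2 and 3 of them numbered 12, 9 and 15. The median of their LSK medians was 110, 193, 213 and 401 RPKM for members found in 0, 1, 2 and 3 of the KO LSC libraries. The LSK medians behind these overlapped widely, at 6.84 to 658, 61.5 to 1103, 6.49 to 866 and 60.5 to 1709 RPKM. By median only, members found in more KO LSC libraries had more signal in LSK cells, which was not tested. By role, 5, 8 and 12 of 14 lid and base genes were at the lowest value in KO LSC 1, 2 and 3, against 0, 1 and 4 of 6 ATPase genes, 2, 2 and 3 of 9 beta core genes, 3 of 8 alpha core genes in each and 1, 1 and 3 of 5 activators. The part of low detection in the calls was not tested.

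**Figure D3:**
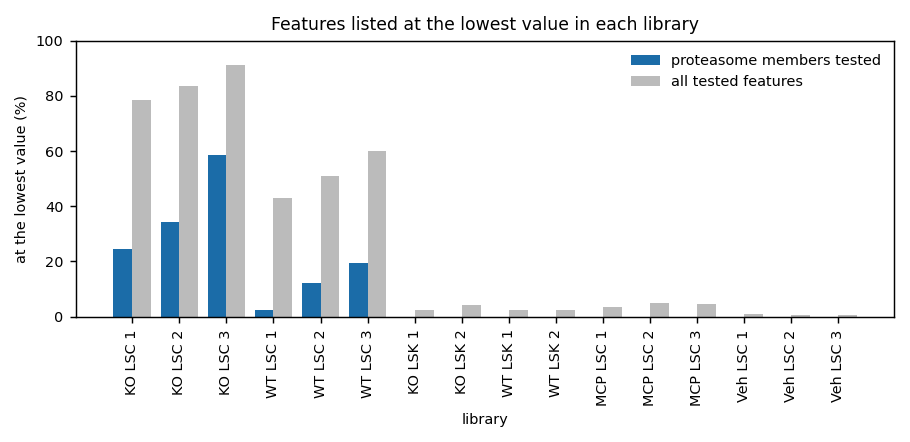
Percent of features at the lowest value in each library, for the 41 tested members (blue) and all tested features (grey). The KO LSC and WT LSC libraries have blue bars from 2.44% to 58.5%, all below their grey bars, and no tested member is at the lowest value in the other 10 libraries.

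Leukemic stem cells were then set against LSK cells of the same genotype. In KO mice, 15 of 41 members fell and none rose, and 8 of the 15 were lid and base genes, against 3 of 8 alpha core, 2 of 8 beta core, 1 of 6 ATPase and 1 of 5 activator genes. That is 36.6% of the members, below the 61.7% of all tested features called lower, while 0.564% were called higher. This background was not matched for level or detection. At the lowest value were 2.27% and 4.01% of all tested features in KO LSK, against 78.7% to 91.3% in KO LSC. Features that met the filter only through the LSK libraries favour a lower call, so the lower share of the members does not show that they were spared. The median difference was -3.52 over the members and -3.06 over all tested features. Psmd6 was at 0.003, 2.26 and 0.003 RPKM in KO LSC, against 267 and 272 in KO LSK, a difference of -7.51 ± 0.87 (SE) and an adjusted p of 0.000175 (limma). Psmc4 was at 11.5, 0.003 and 0.003 RPKM in KO LSC, against 302 and 341 in KO LSK, a difference of -7.11 ± 1.34 (SE) and an adjusted p of 0.00237 (limma). Psmd14, the deubiquitinating subunit of the lid, was at 1.19, 0.003 and 0.003 RPKM, against 175 and 173 in KO LSK, a difference of -7.07 ± 1.43 (SE) and an adjusted p of 0.00342 (limma). No KO LSC library reached the level of a KO LSK library for these 3 genes. Psmb7, the trypsin-like catalytic subunit, was at 27.9, 54.0 and 5.76 RPKM in KO LSC, against 273 and 279 in KO LSK, a difference of -3.65 ± 1.01 (SE) and an adjusted p of 0.0145 (limma).

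The alpha subunits Psma1 and Psma8, the lid subunit Psmd3 and the chaperones Psmd5 and Psmd9 had no signal above 0.003 in any KO LSC library and also passed, so their fitted differences depend on the added 1. Of these, Psma1, Psma8 and Psmd5 met the filter only through the LSK libraries, which favours a lower call for them. Psma1 (chromosome 7, 114264606 to 114276118, minus strand) stood at 0.003 RPKM in each KO LSC library, against 681 and 613 in KO LSK, with an adjusted p of 0.00025 (limma). Psmd3 had 152 and 71.9 RPKM, Psmd5 74.5 and 47.7, Psmd9 96.8 and 123, and Psma8 3.11 and 1.47 in KO LSK. For Psma8 the LSC libraries of both genotypes all held 0.003, so the spread behind its p rests in part on a constant value. Psmd8, a lid subunit, had 162, 0.003 and 0.003 RPKM in KO LSC, against 435 and 463 in KO LSK, with a difference of -6.36 ± 2.09 (SE) and an adjusted p of 0.0293 (limma). Without KO LSC 1, 22 members passed, 19 of them lower and 3 higher, without KO LSC 2, 15 passed, and without KO LSC 3, 11 passed. Without KO LSK 1 and without KO LSK 2, 7 passed each. Of all 13485 tested features, those called lower were 8293 without KO LSC 1, 7934 without KO LSC 2 and 7377 without KO LSC 3. They were 6271 without KO LSK 1 and 7012 without KO LSK 2. The call of Psmd8 was lost in 6 of 10 alternatives (adjusted p up to 0.125), that of Psmb7 in 4 (up to 0.486), that of Psmd9 in 3 (up to 0.154), and those of Psmd14 and Psmd5 in 1 each (limma). With quantile normalization 7 passed, 5 lower and 2 higher, so the split by direction was not the same, and Psma8 took the opposite sign. Of all tested features, 1755 were then called lower and 2013 higher.

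In WT mice 5 of 41 members fell in LSC and none rose, which is 12.2%, below the 42.3% of all tested features called lower, while 1.45% were called higher. This background too was not matched for level or detection. Psma1 was at 13.1, 0.003 and 0.003 RPKM in WT LSC, against 728 and 634 in WT LSK, a difference of -8.14 ± 1.16 (SE) and an adjusted p of 0.000621 (limma). Psmd5 was at 13.7, 0.003 and 0.003 RPKM in WT LSC, against 73.1 and 144 in WT LSK, a difference of -5.40 ± 1.13 (SE) and an adjusted p of 0.00521 (limma). Psmd3 was at 3.46, 35.8 and 0.194 RPKM, against 116 and 164 in WT LSK, with a difference of -4.58 ± 1.27 (SE) and an adjusted p of 0.0200 (limma). Psma2 was at 206, 45.1 and 82.3 RPKM, against 838 and 570.5 in WT LSK, with a difference of -2.90 ± 0.79 (SE) and an adjusted p of 0.0181 (limma). For these 4 genes no WT LSC library reached a WT LSK library. Psma8 was at 0.003 RPKM in each WT LSC library, against 15.5 and 10.6 in WT LSK, and passed with an adjusted p of 1.19e-05 (limma). Psma8, Psma1 and Psmd5 met the filter only through the LSK libraries, which favours a lower call for them. The spread behind the p of Psma8 rests in part on LSC libraries of both genotypes that all held 0.003, so its size is no measure of strength. The call of Psmd3 was lost in 5 of 11 alternatives (adjusted p up to 0.112), that of Psma2 in 2 (up to 0.087), and those of Psmd5 and Psma8 in 1 each (limma).

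The WT LSC libraries lay wholly below the WT LSK libraries for 27 of 41 members (56.3% of all tested features did), and wholly above them for 1 (6.29%), the ATPase Psmc3. Its values were 475, 413 and 469 RPKM in WT LSC, against 410.3 and 375 in WT LSK. The median difference was -1.59 over the members and -1.94 over all tested features. In the model without the KO LSC libraries, 11 members fell (Psma1, Psma2, Psma6, Psma8, Psmb7, Psmb10, Psmd3, Psmd5, Psmd6, Psme3 and Psmf1), and with quantile normalization 3 did. Of all 13485 tested features, 5412 fell without the KO LSC libraries and 1568 with quantile normalization. Without WT LSK 1 and without WT LSK 2, 3 members passed each, beside 4962 and 4594 of all tested features called lower. The summed stem cell markers were lower and the summed neutrophil markers higher in the LSC libraries, as given above, and their part in these differences was not tested.

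**Figure D4:**
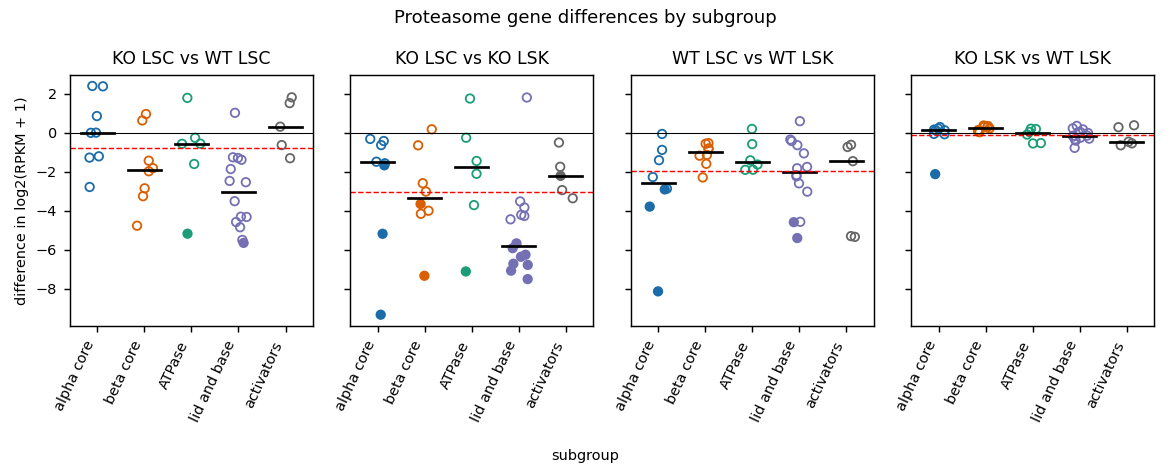
Difference in log2(RPKM + 1) of each member by role, in 4 comparisons within the CD93 experiment, with filled points for an adjusted p under 0.05, a black bar for the median of a role and a dashed line for the median of all tested features. In KO LSC against KO LSK the lid and base genes sit lowest, with a median of -5.80, while in KO LSK against WT LSK all members but Psma8 sit between -0.77 and 0.39.

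In naive cells 1 member fell in KO LSK and none rose. It was Psma8, at 3.11 and 1.47 RPKM in KO LSK, against 15.5 and 10.6 in WT LSK, with a difference of -2.12 ± 0.29 (SE) and an adjusted p of 0.0129 (limma). The KO libraries lay below the WT libraries, but the spread behind this p rests in part on 6 LSC libraries that hold the same value, 0.003. With the 4 LSK libraries alone the adjusted p was 0.805, and without the KO LSC libraries it was 0.225 (limma). One member of 41 is 2.44%, against 1.02% of all tested features called lower and 0.816% called higher. The other 40 members differed by -0.77 to 0.39, with a median over all 41 of 0.04, against -0.11 over all tested features. All 8 tested beta core genes had a positive difference (42.5% of all tested features did), between 0.03 and 0.38, and all 8 had an interval that spans 0. In the model of the 4 LSK libraries alone, 22 of 41 members had a 95% interval within 1 log2 unit of 0 and none had one within 0.5, so differences under that size could not be seen. Psma8 and Psma7 are close paralogs and their reads may be shared, which adds uncertainty to Psma8, whose ratio to Psma7 was 0.00192 and 0.000737 in KO LSK and 0.00863 and 0.00890 in WT LSK.

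The difference between genotypes was compared between LSCs and LSK cells as an interaction. Psmd6 had a KO to WT difference of -5.65 in LSC and of 0.04 in LSK, and the interaction of -5.69 ± 1.23 (SE) passed with an adjusted p of 0.0359 (limma). Psma8 had an interaction of 2.12 ± 0.38 (SE) and an adjusted p of 0.0177 (limma). Since all 6 LSC libraries held the value 0.003 for it, that is the LSK difference with its sign turned, and it does not show that the genotypes differ in another way in LSCs. The share of members called was 2.44% in each direction, against 5.15% of all tested features lower and 0.934% higher. Without KO LSC 3 none passed, and without KO LSC 1, 6 did. Of all 13485 tested features, 438 were called lower and 53 higher without KO LSC 3. Without KO LSC 1 these were 934 and 92. The interactions share control libraries with the comparisons above.

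Metoclopramide was compared with vehicle in WT leukemic stem cells. Psma7, the alpha subunit with the highest level, rose, and no member fell. It was at 404, 413 and 419 RPKM in MCP LSC, against 298, 327 and 319.7 in Veh LSC. The 3 MCP libraries lay above the 3 Veh libraries, with a difference of 0.39 ± 0.06 (SE), a 95% interval of 0.24 to 0.53 and an adjusted p of 0.0322 (limma). Psma7 lies on chromosome 2, 180036374 to 180042433, minus strand. One of 41 members is 2.44%, against 0.521% of all 14005 tested features called higher and 1.8% called lower. The call was lost without any one of MCP 2, MCP 3, Veh 1, Veh 2 and Veh 3, with adjusted p from 0.0543 to 0.156, and it was kept without MCP 1 (0.0467, limma).

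As a share of the column total, the members were level or lower in MCP LSC, as given above. Fewer features were above the lowest value there, and the background below was not matched for level. By median, the members' log2 differences lay above those of all tested features. Their median difference was 0.02, against -0.18 over all 14005 tested features, and 24 of 41 had a positive difference, against 28.2% of all. Without MCP 1, 17 of 41 were positive and the median was -0.03, against -0.18 over all features. By role, 7 of 8 beta core, 6 of 8 alpha core, 5 of 6 ATPase, 3 of 5 activator and 3 of 14 lid and base genes had a positive difference. The medians were 0.16 for the beta core, 0.06 for the alpha core, 0.04 for the ATPases, 0.10 for the activators and -0.06 for the lid and base. When each library was scaled so that the median difference over all features was 0, 35 of 41 members had a positive difference, among them 11 of 14 lid and base genes. The median was then 0.20 over the members and -0.005 over all tested features, a value the scaling fixes near 0. The share of all tested features with a positive difference was not counted there. Under that scaling Psma7 had a difference of 0.56 and an adjusted p of 0.00689, and Psma6, an alpha subunit, passed too, with 0.44 and 0.0341 (limma). That scaling moves every gene up by about the same amount. The median of the lid and base genes, negative as given above, was 0.12 under it and -0.02 with quantile normalization, where 5 of 14 were positive.

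For 5 members the MCP libraries all lay above the Veh libraries (4.91% of tested features did), and for 6 they all lay below (25.6%). The 5 were Psma6, Psma7, Psmb5, Psmb6 and Psmd8. Psmb5, the chymotrypsin-like subunit, was at 48.4, 54.0 and 63.6 RPKM in MCP LSC, against 39.4, 48.0 and 44.9 in Veh LSC. Psmb6, the caspase-like subunit, was at 123, 119 and 117 RPKM in MCP LSC, against 98.6, 113 and 90.3 in Veh LSC. Their adjusted p were 0.198 and 0.178 (limma), and genes other than Psma7 were named here after their values were seen. Psmd1 and Psmd2, scaffold subunits of the base, were at 90.2, 93.0 and 101 RPKM and at 75.3, 65.9 and 69.9 in MCP LSC, against 109, 115 and 109.5 and against 83.1, 86.8 and 81.1 in Veh LSC, with adjusted p of 0.128 and 0.139 (limma). In all, 8 of 41 members had an unadjusted p under 0.05, against 23% of all tested features. The 95% interval lay within 1 log2 unit of 0 for 39 members and within 0.5 for 33.

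Marker lists moved with the treatment. The 11 stem cell and LSK markers summed to 220.0 to 231 RPKM in MCP LSC, against 342 to 358 in Veh LSC, and 4 granule-stage progenitor markers to 4588 to 4744, against 3009 to 3251. The 5 mast cell and basophil markers summed to 25.7 to 35.4 RPKM in MCP LSC, against 146 to 161 in Veh LSC, and the 8 neutrophil markers to 244 to 349, against 173 to 189. S100a8 and S100a9 carried the neutrophil sum, while Ltf was at 1.56, 0.345 and 0.494 RPKM in MCP LSC, against 2.32, 2.58 and 2.74 in Veh LSC, and Mmp8 was at the lowest value in MCP LSC, against 0.168 to 0.192 in Veh LSC. No stem cell marker was at the lowest value in these libraries. Their part in the proteasome differences was not tested.

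**Figure D5:**
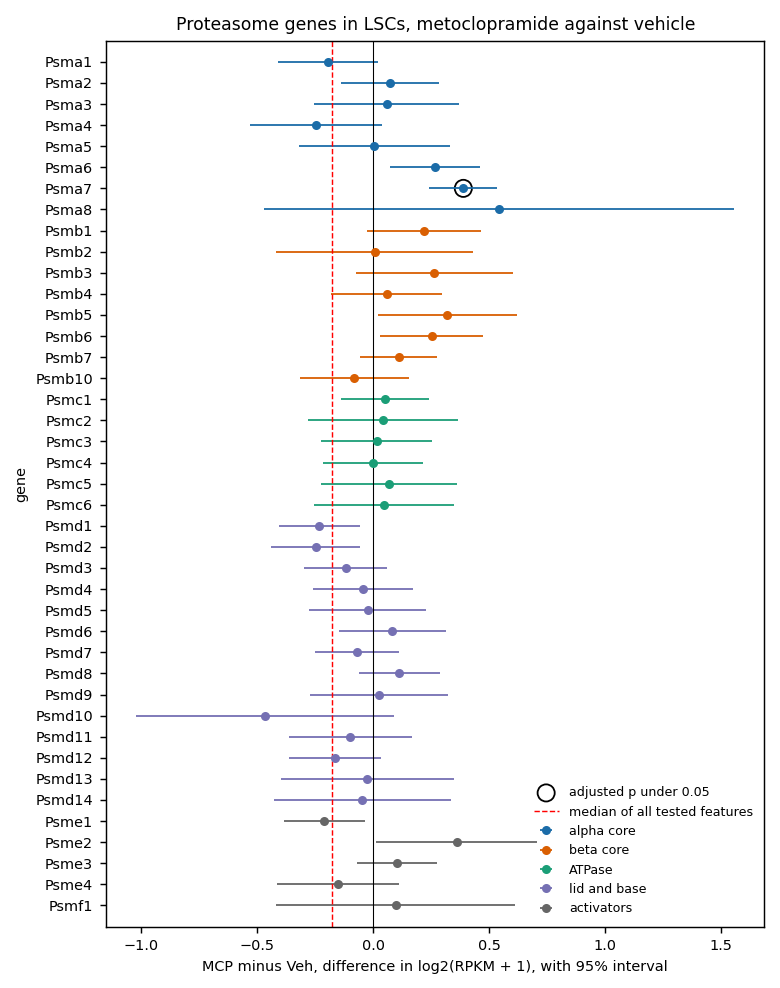
Difference in log2(RPKM + 1), MCP minus Veh, of the 41 tested members with 95% intervals (rows by role), the median of all tested features as a red dashed line at -0.18 and a ring around the gene with an adjusted p under 0.05. Psma7 at 0.39 carries the ring, and most points lie right of the dashed line.

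Other genes of the pathway were counted from lists of chaperones, proteasome partners, regulators, ubiquitin genes and shuttle factors, 46 genes in each experiment. In MCP against Veh none passed (limma) and 13 of 46 had an unadjusted p under 0.05 (23% of all tested features did). Rps27a, a ubiquitin fusion gene, at 346, 336 and 350.1 RPKM in MCP LSC, against 247, 287 and 226 in Veh LSC, had a difference of 0.45 and an adjusted p of 0.0555. The chaperone Psmg3 was at 43.5, 70.7 and 50.2 RPKM, against 29.0, 32.6 and 26.9, with a difference of 0.85 and an adjusted p of 0.0602 (limma). The smallest p of the other lists belonged to the partner Txnl1 (0.38, adjusted p 0.0658, limma), the regulator Stat3 (-0.47, adjusted p 0.0658) and the shuttle factor Ubqln2 (-0.50, adjusted p 0.069). In KO LSC against WT LSC, 5 of 46 fell (8.74% of all tested features did). They were Nfe2l2 (an activator of proteasome genes in oxidative stress), Stat3, Ufd1l and Faf2 (which help extract ubiquitinated proteins) and Cdc34 (a ubiquitin-conjugating enzyme). Nfe2l2 was at 0.003 RPKM in each KO LSC library, against 84.6, 124 and 107 in WT LSC, with an adjusted p of 0.000498 (limma). For the interaction 3 of 46 passed, all lower (Nfe2l2, Ufd1l and Cdc34), beside 5.15% of all tested features. In KO LSK against WT LSK none passed (limma), with 4 at an unadjusted p under 0.05. In KO LSC against KO LSK 30 of 46 fell, among them all 9 regulators, and in WT LSC against WT LSK 16 did, among them 6 of 9 regulators, 2 of 6 chaperones, 3 of 8 partners, 4 of 12 shuttle factors and 1 of 11 ubiquitin genes. These shares, like those of the members, stand beside 61.7% and 42.3% of all tested features called lower. All 9 regulators were at 0.003 RPKM in each KO LSC library, so their fitted differences there depend on the added 1. Ddi2, Bach1 and Mafk were at 0.003 in all 6 LSC libraries, and Nfe2l1, Ngly1 and Mafg had signal in 1 each. These genes met the filter only through the LSK libraries, which favours a lower call, so their calls are not a result about regulators.

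Positions of the 42 genes were taken from the GENCODE annotation of GRCm38. They lie on 16 chromosomes, all as protein-coding genes. Psmb5 and Psmb11 lie 3410 bases apart and Psme1 and Psme2 5911 bases apart, both on chromosome 14. Of the 42, 19 overlap another annotated gene: Psma2, Psma3, Psma4, Psma5, Psma6, Psmb5, Psmb7, Psmb10, Psmc3, Psmc5, Psmd1, Psmd3, Psmd5, Psmd9, Psmd12, Psmd13, Psmd14, Psme1 and Psme4. By name, Psmb6 has 2 pseudogenes and Psmb5 and Psmb7 1 each. Whether reads were split among such copies or counted by strand is not given in the sources used here, so the levels of these genes are uncertain.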

How the data were processed

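Per the labels, RNA of sorted cells was extracted with the RNeasy Micro kit and amplified with SMART-Seq v4. The deposited values were taken as RPKM made by the authors, a unit inferred from the values. The submitters' processing notes name the build GRCm38 (mm10). The aligner, the counter and the gene models were not given in the sources used here. Values were analysed as log2(RPKM + 1) with limma (version 3.58.1, with statmod 1.5.0 in R 4.3.3), using its trend option, 1 mean per group and features of at least 1 RPKM in at least 2 libraries (13485 in the CD93 table and 14005 in the drug table). One model covered the 10 libraries of the CD93 table and another the 6 of the drug table. Two-sided p-values were adjusted by Benjamini-Hochberg over all tested features, with a threshold of 0.05. A fitted difference under 1e-09 in size was set to 0. No counts were used, so depth is unknown and no counting interval is given. Nothing in the labels ties a replicate to its own animal, so p-values measure the spread between these libraries, which may be technical. Alternatives were quantile normalization, no filter, an added 0.1 in place of 1, a replicate block, a model of the compared groups alone, and leaving out each library. Leaving out the KO LSC libraries, scaling to the median difference and a crossed block were added after the data were seen.

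The members, the pathway and marker lists and the alternatives were chosen with earlier results of these data known. Named genes were, in each comparison, the members that passed (at most 10 by smallest p) or otherwise the 3 with the smallest p, the highest and lowest of each role in Veh LSC and WT LSK, the paralog pairs, the activators, members at the lowest value throughout an experiment, and up to 3 that passed of each pathway list or otherwise the one with the smallest p. Others are said to be named after their values were seen. Where a name stood on several features (454 and 90 features), each was tested separately. Of the list symbols, Paaf1 and Adgre1 were matched in neither table, and Hbb-bs and Hbb-bt not in the CD93 table; Sem1, Ecpas and Ufd1 were matched under older symbols.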

Additional observations from a re-analysis of the deposited data

Results flagged for a closer look

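For 2 members the test of the difference between the genotype effects in LSCs and in LSK cells passed its threshold. Psmd6 had an interaction of -5.69 ± 1.23 (SE) in log2(RPKM + 1) and an adjusted p of 0.0359 (limma), with every KO LSC library below every WT LSC library. The call was lost in 8 of 14 alternatives, where the adjusted p reached 0.567. Psma8 had an interaction of 2.12 ± 0.38 (SE) and an adjusted p of 0.0177 (limma), and it rests on 2 KO LSK and 2 WT LSK libraries, since the LSC libraries of both genotypes were at 0.003. It is the LSK difference with its sign turned, and that difference had an adjusted p of 0.805 in the 4 LSK libraries alone, so it does not show that the effect of genotype differs between the cell types. The call was lost in 3 of 14 alternatives, where the adjusted p reached 0.0724.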

How the results depend on the processing

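The counts of members that passed were recomputed under each alternative. In KO LSC against WT LSC, 2 passed, and 1 passed with quantile normalization, with an added 0.1 and with only the compared groups, and 2 to 7 passed with each library left out. In KO LSK against WT LSK, 1 passed, and 0 passed with quantile normalization, with only the compared groups, without the KO LSC libraries and with the replicate block, straight or crossed, the crossed one tried because same-numbered libraries of these groups correlated at -0.282 in their deviations from the group means; 1 passed with each library left out. In WT LSC against WT LSK, 5 passed, against 3 with quantile normalization, 11 without the KO LSC libraries and 3 to 7 with each library left out. In KO LSC against KO LSK, 15 passed, against 7 with quantile normalization, 8 with only the compared groups and 7 to 22 with each library left out. For the interaction, 2 passed, against 0 with quantile normalization and with the replicate block, 1 with an added 0.1 and 0 to 6 with each library left out. In MCP against Veh, 1 passed, against 0 with the replicate block, 2 when scaled to the median difference and 0 to 1 with each library left out. Psma8 reversed with quantile normalization in KO LSC against KO LSK, to 0.75. In the other groups compared, same-numbered libraries correlated between -0.0377 and 0.0376. In the CD93 experiment this cannot settle whether the numbers pair the samples. There, the deviations of 2 LSK libraries mirror each other, and many LSC values sat at the lowest value. In MCP and Veh LSC the range was -0.0084 to 0.014, so no pairing was seen. Of the alternatives for single named genes, 172 kept the side of the threshold, 54 lost the call and 1 reversed. The number of all tested features called changed between the alternatives too, so the counts of members are not results about the members alone. The cause of these changes was not tested. Depth is unknown, and with 2 to 3 libraries a group small differences could not be seen.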
